A study of Homo sapiens with 2 samples.

Results

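The lysosome is the acidic compartment in which cells break down proteins, sugars, lipids and nucleic acids, and 44 genes that encode its enzymes, membrane proteins and proton pump, together with TFEB, are described here. They were chosen by name, as the rows whose gene symbol stands in a fixed list of 44 symbols, and all 44 were found among the 13137 genes of the tag table. This list was chosen with earlier results of these data known, so the shares called within it describe the list and are no independent test. The list held 9 proteases, 9 glycosidases, 4 sulfatases, 7 lipid hydrolases or their helper proteins, 2 other soluble enzymes, 7 membrane proteins, 5 subunits of the V-ATPase and the transcription factor TFEB. Of the 44, 36 carried the lysosome in their deposited Gene Ontology component and 8 did not.

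Both libraries came from A549, a human lung adenocarcinoma cell line, after 4 days with doxycycline. One line carried H1TetO-shRNA-SOX2, a doxycycline-inducible hairpin of a single sequence against the transcription factor SOX2, and the control line carried H1TetO-shRNA-Con with a scrambled hairpin, so that lentiviral insertion, the inducible H1 promoter, selection and doxycycline were common to both. The lines were puromycin-selected polyclonal populations, and 1 library per condition was profiled by digital gene expression (DGE), which counts short sequence tags of mRNA. The comparison asks which genes differ once SOX2 is targeted, and with 1 library each it has no replicate check.

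SOX2 itself was counted with 16 tags for shRNA-Con and 23 for the other line, a ratio of 1.58 (95% interval 0.80 to 3.20, adjusted p = 0.333 by Fisher's exact test). A lower level of the targeted transcript was therefore not detected in these counts. The paper reports silencing of SOX2 by Western blotting of protein, which tag counts do not measure. The library of the other line is called the library labelled shRNA-SOX2 throughout. Every direction given rests on these labels and on the reading of the abbreviated column names SC and S1. Pairs of counts give shRNA-Con first and the library labelled shRNA-SOX2 second. The tags assigned to genes numbered 2304184 and 2093816, which was 65.5% and 60.6% of the clean tags of each. Tags of 6 epithelial markers were present in both libraries, with KRT8 at 7702 and 12729 and KRT18 at 10318 and 7887, and 2 of the 6 were called higher and 2 lower, while EPCAM had 8 and 4 tags. Of 8 macrophage and leukocyte markers, 3 had a row and summed to 16 and 15 tags, with PTPRC at 2 tags in each. Of 8 fibroblast and endothelial markers, 3 had a row and summed to 47 and 45 tags. In bulk RNA such as this, fewer cells of a type and less RNA per cell cannot be told apart.

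Most soluble lysosomal enzymes are made in the endoplasmic reticulum, receive a mannose-phosphate tag in the Golgi and are carried to the lysosome by receptors for that tag. There the V-ATPase pumps protons into the lumen, the resulting acidity activates the enzymes, and heavily glycosylated membrane proteins line the boundary. Many lysosomal genes share a short promoter sequence known as the CLEAR element, an extended E-box that TFEB and its relatives bind, so that the cell can raise the whole compartment when it is starved or stressed. Inherited loss of single enzymes gives the lysosomal storage diseases, from which several of these genes take their names.

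The E-box CACGTG at the core of this element was searched in the promoters of the members. RefSeq promoter windows on GRCh38.p14, from 250 bases before to 50 bases after the annotated start and thus 300 bases long, were at hand for 33 of the 44 genes. CACGTG reads the same on both strands and was found in 11 of the 33 (33.3%), against 12.6% of the 10533 genes of the table with a window and 7.26% of all 35116 windows. The longer forms contain it, so their counts are nested. TCACGTG on either strand was in 10 members (30.3%, against 7.19% of genes and 3.71% of windows) and TCACGTGA in 6 (18.2%, against 2.19% and 0.980%). The 11 members held 20 copies of CACGTG, and 5 of them held more than 1. A match of letters is a description of the window and not a measured binding site.

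As examples of the stretches behind these counts, chosen after their values were seen, 26 bases around the hexamer, which the search fixed, are printed 5′ to 3′ on the strand of the gene, with CACGTG in capitals, for 4 members called higher (CTSA, GAA, NEU1 and LAMP1), 1 called lower (ATP6V0D1) and 1 that was not called (MCOLN1).
CTSA, chr20:45891300-45891325, plus strand, hexamer 25 bases before the start: cgccggagttCACGTGactcgtacac
GAA, chr17:80101495-80101520, plus strand, 76 bases before the start: gaggccgcgtCACGTGacccaccgcg
GAA, chr17:80101540-80101565, plus strand, 31 bases before the start: tcccgccggtCACGTGacccgcctct
NEU1, chr6:31862932-31862957, minus strand, 126 bases before the start: gctgcgtgatCACGTGggaggagatg
LAMP1, chr13:113297201-113297226, plus strand, 28 bases before the start: cccgcgggatCACGTGacgcccgggc
ATP6V0D1, chr16:67481201-67481226, minus strand, 59 bases before the start: cccttatggtCACGTGaggcgcttgc
MCOLN1, chr19:7522600-7522625, plus strand, 14 bases before the start: gctaccgggtCACGTGaccgaggcac

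Of the 44 lysosomal genes, 23 took a higher share of the tags of the library labelled shRNA-SOX2 than of shRNA-Con, and 3 a lower share, at the study's false discovery rate (FDR) of 0.001, by Fisher's exact test per gene and the Benjamini-Hochberg method over all 13137 genes. The 26 called were 59.1% of the list, which was chosen with earlier results known, against 21.7% called among all genes. In the higher direction 52.3% of the members were called against 9.53% of all genes, and in the lower direction 6.82% against 12.2%. Tag number sets how small a difference such a test can call, and 27 of the members had at least 200 tags in the libraries together. Among these 27, 19 were called (70.4%, against 48.1% of the 3926 genes as deep), 17 of them higher (63.0%, against 20.7%) and 2 lower (7.41%, against 27.4%). By size alone, 13 members were at least 2-fold higher (29.5%, against 11.0% of all genes) and 3 at least 2-fold lower (6.82%, against 12.1%).

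Fold changes are given on the log2 scale, the library labelled shRNA-SOX2 relative to shRNA-Con, each count first divided by its library's gene tags and counts under 3 raised to 3. The 42 members with at least 20 tags had a median log2 fold change of 0.71 (quartiles 0.14 and 1.07, from -1.45 to 2.18), and 33 of them (78.6%) lay above 0. Over the 10045 genes with as many tags the median was -0.10 (quartiles -0.62 and 0.44) and 44.9% lay above 0. These tests compare the libraries and not the conditions. When a spread between cultures with a coefficient of variation of 0.1 was assumed in edgeR's exact test, 13 members were called, 12 higher and 1 lower, and 1166 of all 13137 genes. With an assumed coefficient of 0.2 this test called 0 members and 113 of all 13137 genes. At this coefficient 17 members (38.6%, against 18.9% of all genes) had an unadjusted p under 0.05, 15 higher and 2 lower.

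**Figure D1:**
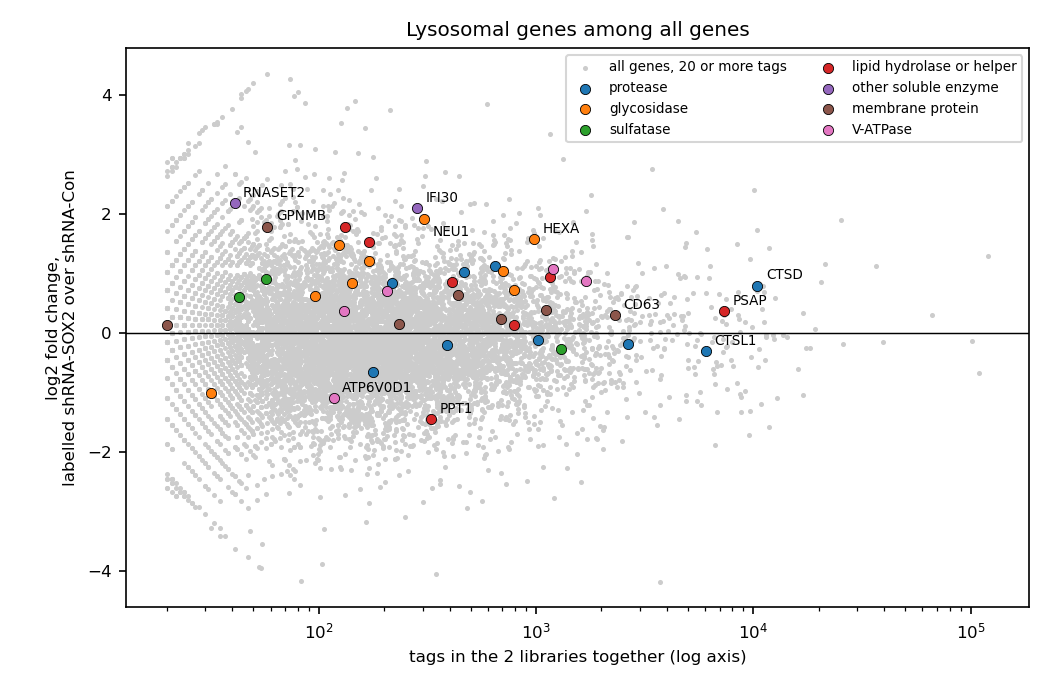
Total tags in both libraries (log axis) against the log2 fold change of the library labelled shRNA-SOX2 relative to shRNA-Con, for all genes with at least 20 tags in grey and for the lysosomal genes in colour by role. Of the 42 lysosomal genes drawn, 33 lay above 0, while the grey points had a median of -0.10.

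Summed over the 44 genes, 20526 and 25195 tags were counted. That was 0.891% (95% interval 0.879 to 0.903) and 1.20% (1.19 to 1.22) of the gene tags, a ratio of 1.35 (1.33 to 1.38). A few genes hold most of this sum. CTSD, CTSL1 and PSAP together held 53.2% and 51.4% of the members' tags, and with CTSB and CD63 the shares were 65.7% and 60.9%. Without CTSD the ratio of the sums was 1.26, and without CTSL1 it was 1.46. The plot of levels by gene has a log axis for this reason.

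**Figure D2:**
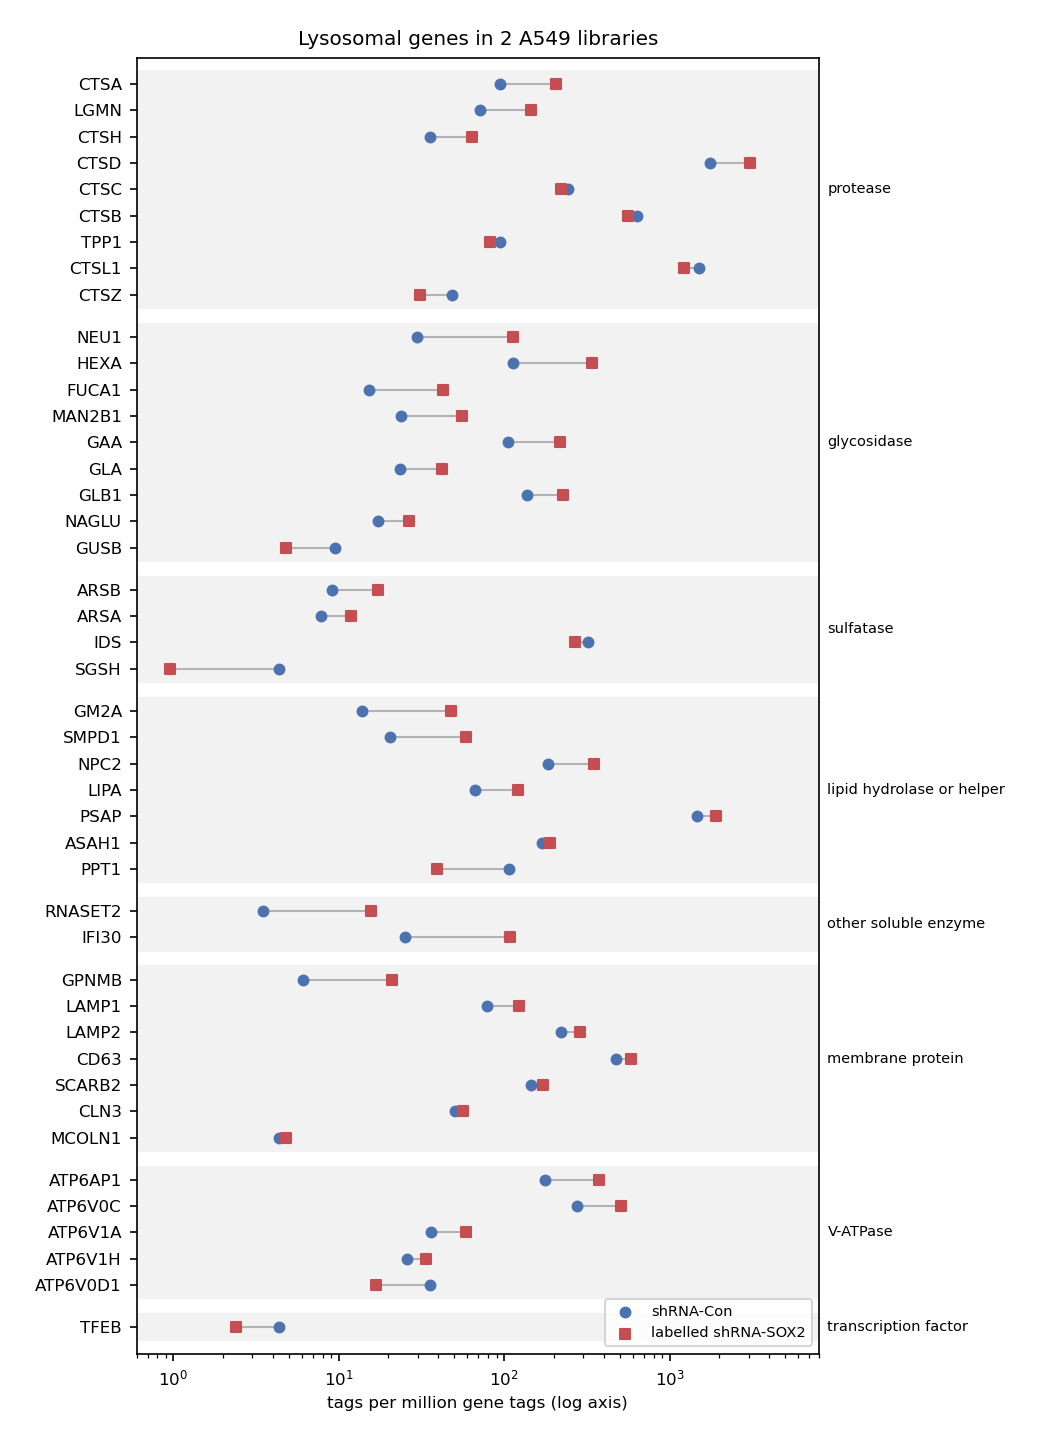
Level in CPM (tags scaled to the gene tags of the library, log axis) of each of the 44 lysosomal genes, grouped by role, in shRNA-Con (blue circles) and in the library labelled shRNA-SOX2 (red squares), with 1 library per condition and no error bars. CTSD at 1758 and 3057 CPM lay at the right, and SGSH, MCOLN1 and TFEB lay at the left with 10 or fewer tags in each library.

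The proteases cut proteins in the lumen, and as a group they were divided. Of its members 4 were called higher and 1 lower (44.4% and 11.1%), and the median of the 9 was -0.12. For this and each later role, the shares of all genes were 9.53% higher and 12.2% lower. Among genes with at least 200 tags they were 20.7% and 27.4%. Cathepsin D, the main aspartic protease of lysosomes (CTSD, Entrez Gene ID 1509), had 4050 tags in shRNA-Con against 6400 in the other library, a log2 fold change of 0.80 (ratio 1.74, 95% interval 1.67 to 1.81, adjusted p = 6.15e-170). Cathepsin A, a serine carboxypeptidase that also holds NEU1 and GLB1 in a stable complex (CTSA, Entrez Gene ID 5476), had 217 and 429 tags, or 1.12 on the log2 scale (adjusted p = 2.09e-20). Legumain, a cysteine protease that cuts after asparagine (LGMN), had 164 and 304, or 1.03 (adjusted p = 8.53e-13). Cathepsin H, an aminopeptidase (CTSH), had 82 and 134, or 0.85 (adjusted p = 1.24e-04). All 4 rose, and the rises of CTSA and LGMN were over 2-fold.

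Among the members, the cysteine cathepsins with the most tags (CTSL1, CTSB and CTSC) had log2 fold changes below 0, and of these only CTSL1 was called. Those of CTSB and CTSC lay near -0.10, the median of all genes. Cathepsin L, listed under its earlier symbol CTSL1, had 3488 tags in shRNA-Con against 2575, a log2 fold change of -0.30 (95% interval of the ratio 0.772 to 0.855, adjusted p = 1.92e-14). It was the protease called lower, by less than 1.5-fold. Cathepsin B (CTSB), with 1474 and 1177 tags (log2 fold change -0.19, adjusted p = 0.00372), and the carboxypeptidase cathepsin Z (CTSZ), with 112 and 65 (-0.65, adjusted p = 0.0136), did not pass. Nor did the dipeptidyl peptidase cathepsin C (CTSC), with 557 and 465 tags (-0.12), or the tripeptidyl peptidase TPP1, with 217 and 171 (-0.21). The sum of the 9 proteases was 10361 and 11720 tags, a ratio of 1.24 (1.21 to 1.28), and the direction of that sum rested on CTSD, since the ratio was 0.928 without it.

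The glycosidases strip sugars from glycoproteins, glycolipids and glycogen. Of 9 members, 6 were called higher (66.7%) and 0 lower, with a median log2 fold change of 1.05. HEXA, the alpha subunit of beta-hexosaminidase that is lost in Tay-Sachs disease (Entrez Gene ID 3073), had 262 tags in shRNA-Con against 714, a log2 fold change of 1.58 (95% interval of the ratio 2.60 to 3.47, adjusted p = 4.27e-57). Sialidase NEU1, which removes terminal sialic acid (Entrez Gene ID 4758), had 69 and 236, or 1.91 (adjusted p = 1.03e-24). Acid alpha-glucosidase, the glycogen-degrading enzyme lost in Pompe disease (GAA), had 243 and 458, or 1.05 (adjusted p = 1.04e-19). Beta-galactosidase GLB1 had 318 and 477 tags (0.72, adjusted p = 3.65e-11), which is a smaller rise than that of HEXA by their intervals, 1.43 to 1.91 against 2.60 to 3.47. Alpha-mannosidase MAN2B1 had 55 and 116 tags (1.21, adjusted p = 1.08e-06) and alpha-fucosidase FUCA1 had 35 and 89 (1.48, adjusted p = 5.58e-07). NEU1, CTSA and GLB1, which form 1 complex in the lysosome, were thus all called higher.

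The other three glycosidases did not pass the test. GLA, the alpha-galactosidase lost in Fabry disease, had 54 and 88 tags (log2 fold change 0.84, adjusted p = 0.00294). NAGLU, which acts on heparan sulfate, had 40 and 56 tags (0.62, adjusted p = 0.0952). Beta-glucuronidase GUSB had 22 and 10 tags (interval of the ratio 0.211 to 1.10), the only glycosidase of the 9 with a log2 fold change below 0. Its tags are uncertain, because GENCODE release 29 names 10 GUSB pseudogenes, and the same caution holds for CTSL1 with 5, GM2A with 2, and FUCA1, LGMN and IDS with 1 each. The 9 genes summed to 1098 and 2244 tags, a ratio of 2.25 (2.09 to 2.42), and the ratio was 2.01 without HEXA.

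None of the 4 sulfatases, which remove sulfate from glycosaminoglycans and sulfolipids, passed the test. Iduronate sulfatase IDS, lost in Hunter syndrome, had 738 and 561 tags (log2 fold change -0.26, adjusted p = 0.00569). The other three were shallow, with arylsulfatase A (ARSA) at 18 and 25 tags, arylsulfatase B (ARSB) at 21 and 36, and SGSH, the heparan N-sulfatase, at 10 and 2. The interval of the SGSH ratio ran from 0.0234 to 1.03, so that a difference was not detectable at this depth. The summed ratio of 0.873 (0.784 to 0.970) followed IDS and was 1.41 without it.

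**Figure D3:**
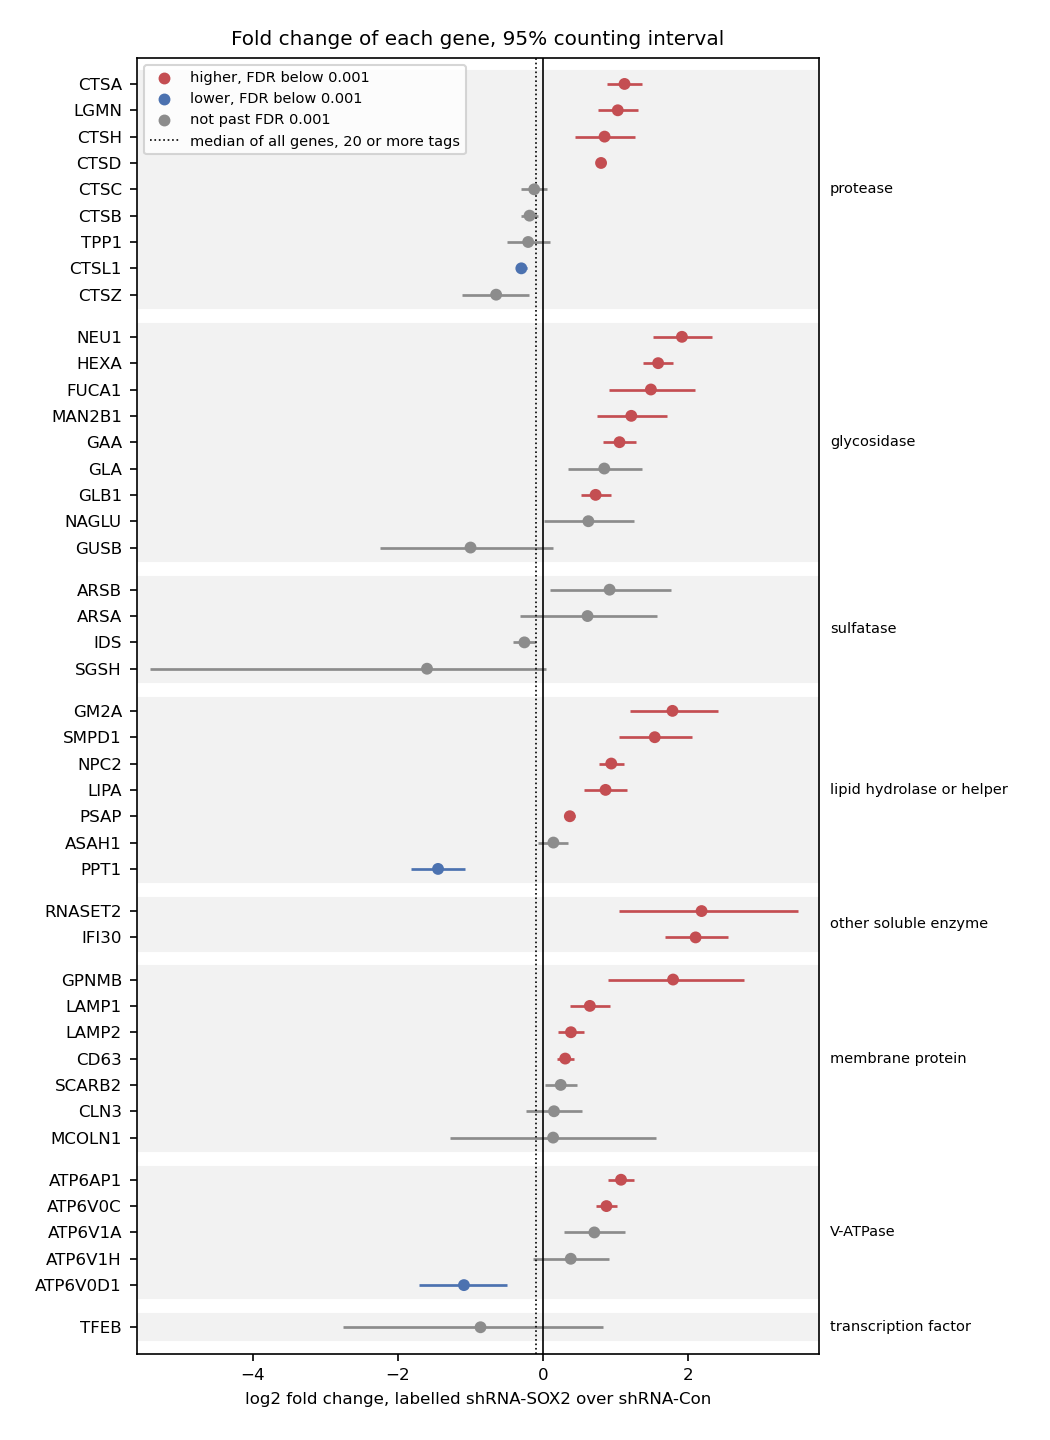
Log2 fold change of each lysosomal gene with its 95% counting interval, the library labelled shRNA-SOX2 relative to shRNA-Con, grouped by role, with genes called at FDR 0.001 in colour, a solid line at 0 and a dotted line at the median of all genes (-0.10). Glycosidases lay to the right of 0 but for GUSB, up to 1.91 (NEU1), whereas proteases lay on both sides, from -0.65 (CTSZ) to 1.12 (CTSA).

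Of the 7 enzymes and helper proteins of lipid breakdown, 5 were called higher and 1 lower (71.4% and 14.3%), with a median log2 fold change of 0.86. GM2A, the activator protein that presents the ganglioside GM2 to beta-hexosaminidase, had 32 tags in shRNA-Con against 100, a log2 fold change of 1.78 (adjusted p = 7.63e-10). It rose together with HEXA, the enzyme it serves. Acid sphingomyelinase (SMPD1) had 47 and 124 tags, or 1.54 (adjusted p = 6.35e-10). NPC2, a soluble cholesterol carrier, had 422 and 735 tags, or 0.94 (adjusted p = 5.99e-26). Acid lipase (LIPA), which frees cholesterol from its esters, had 154 and 254, or 0.86 (adjusted p = 3.91e-08). The rises of these 4 genes ran from 1.82-fold (LIPA) to 3.44-fold (GM2A).

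Prosaposin (PSAP), the precursor of the saposin activators, had 3389 and 3975 tags and a small rise of 0.37 on the log2 scale (adjusted p = 2.56e-26). The acid ceramidase ASAH1 had nearly the same number of tags in each library, 393 and 394 (log2 fold change 0.14, adjusted p = 0.301). Palmitoyl-protein thioesterase PPT1, which removes fatty acids from proteins, went against its group. It had 246 tags in shRNA-Con but 82 in the other library, a log2 fold change of -1.45 (ratio 0.367, 95% interval 0.282 to 0.473, adjusted p = 1.03e-15), the lowest of the 42 members with at least 20 tags. An exon of PPT1 overlaps CAP1 on the opposite strand in GENCODE release 29. Whether tags lie in the overlap was not checked, and without a stated strand of counting tags there cannot be told apart. In all, 19 members have an exon that overlaps another annotated gene on either strand, and where their tags lie was likewise not checked. Of these 19, 11 were called (CTSA, CTSD, GLB1, HEXA, MAN2B1, NPC2, PPT1, RNASET2, IFI30, CD63 and ATP6V0C), beside 26 of all 44 members. Overlaps were not counted for the other genes. The group summed to 4683 and 5664 tags, a ratio of 1.33 (1.28 to 1.38).

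Both other soluble enzymes were called higher. IFI30, a thiol reductase that opens disulfide bonds of proteins in the lysosome and is known as interferon-inducible (Entrez Gene ID 10437), had 58 tags in shRNA-Con against 226, a log2 fold change of 2.10 (ratio interval 3.20 to 5.83, adjusted p = 8.61e-27). RNASET2, an acid ribonuclease, had 8 and 33 tags, or 2.18 (ratio interval 2.06 to 11.4, adjusted p = 1.41e-04). The intervals of both ratios overlapped each other and that of GM2A, 2.29 to 5.29.

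Of the 7 membrane proteins 4 were called (57.1%), all of them higher, and the median log2 fold change of the 7 was 0.30. LAMP1 and LAMP2, the abundant glycoproteins that coat the inner face of the membrane, had 181 and 257 tags (log2 fold change 0.64, adjusted p = 2.61e-05) and 507 and 601 tags (0.38, adjusted p = 6.55e-05). The tetraspanin CD63 had 1089 and 1222 tags, or 0.30 (adjusted p = 3.09e-06). GPNMB, a transmembrane glycoprotein of lysosomes and melanosomes, stood apart with 14 and 44 tags, or 1.79 (adjusted p = 9.45e-05). The other three did not pass the test. SCARB2, the receptor that brings glucocerebrosidase to the lysosome, had 333 and 358 tags (0.24, adjusted p = 0.0685), CLN3, lost in a form of Batten disease, had 117 and 118 (0.15), and the calcium channel MCOLN1 had 10 in each. A gene with the same count in both libraries has a log2 fold change of 0.14, because shRNA-Con had more gene tags. The interval of the MCOLN1 ratio ran from 0.411 to 2.95, so that a 2-fold change in either direction lay within it. Summed, the group had a ratio of 1.28 (1.21 to 1.35), below the 2.25 (2.09 to 2.42) of the glycosidases.

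Among the 5 V-ATPase genes, 2 were called higher and 1 lower. The proton-conducting ring subunit ATP6V0C had 636 and 1058 tags (log2 fold change 0.87, adjusted p = 7.21e-33), although GENCODE release 29 names 4 pseudogenes that could share its tags. The accessory subunit ATP6AP1 had 409 and 782, or 1.07 (adjusted p = 2.60e-34). ATP6V0D1, which couples the ring to the central stalk of the pump, fell with 82 and 35 tags, or -1.09 (ratio interval 0.307 to 0.706, adjusted p = 6.20e-04), and this call was lost with TMM scaling (adjusted p = 0.00171). The catalytic subunit ATP6V1A, with 83 and 123 tags (0.71, adjusted p = 0.00247), and the regulatory subunit ATP6V1H, with 60 and 71 (0.38, adjusted p = 0.248), were not called. Subunits of the same pump were thus called in both directions.

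TFEB, the transcription factor that binds the CLEAR element, had 10 and 5 tags (interval of the ratio 0.148 to 1.77, adjusted p = 0.449). A difference was not detectable at this depth. Its relatives TFE3, with 260 and 204 tags (log2 fold change -0.21, adjusted p = 0.231), and MITF, with 95 and 57 (-0.60, adjusted p = 0.0406), did not pass the test. Among members with a promoter window and at least 20 tags, the median log2 fold change was 0.80 over the 11 with CACGTG and 0.85 over the 21 without it. For TCACGTG on either strand it was 0.86 over 10 genes against 0.84 over 22, and for TCACGTGA it was 0.40 over 6 against 0.85 over 26. The differences were not tested. Over all genes with a promoter window and at least 20 tags the medians were -0.15 with CACGTG (1109 genes) and -0.11 without it (7184 genes).

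The rest of the pathway was read from lists of genes that are no members, which were also chosen with earlier results of these data known. Among 34 other lysosomal hydrolases and helpers, 14 were called higher and 0 lower (41.2% against 9.53% of all genes in the higher direction), and their median of 0.73 was close to the 0.71 of the members. Their summed tags were 3917 and 5957, a ratio of 1.67 (1.61 to 1.74). The steepest rises were of the cysteine cathepsin CTSO, with 3 and 24 tags (log2 fold change 3.14), and the phospholipase PLA2G15, with 5 and 32 (2.82), both counted on few tags. Among 34 other lysosomal membrane proteins 4 were called higher and 3 lower (11.8% and 8.82%, near the 9.53% and 12.2% of all genes), with a median of 0.27. There the nucleoside transporter SLC29A3 rose from 38 to 110 tags (1.67, adjusted p = 6.05e-10) and the channel MCOLN2 from 6 to 25 (2.20, adjusted p = 9.99e-04), whereas NPC1, the membrane partner of NPC2 in cholesterol export, fell from 124 to 48 (-1.23, adjusted p = 1.24e-06). LITAF, a protein of late endosomal membranes, fell from 968 to 530 tags (-0.73, adjusted p = 3.80e-20). NPC1 and NPC2 were therefore called in opposite directions.

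The medians of the remaining lists lay between those of all genes and of the other membrane proteins. Of 17 other V-ATPase subunits 2 were called higher and 2 lower (11.8% each, again near the shares of all genes), with a median of 0.10, namely ATP6V1B2 (63 and 160 tags) and ATP6V1G1 (153 and 323) higher and ATP6V1C2 (128 and 39) and ATP6AP2 (493 and 240) lower. Of 28 genes of sorting to lysosomes, 2 were called higher and 4 lower (7.14% and 14.3%, also near those shares), with a median of 0.04. GNPTG, a subunit of the enzyme that makes the mannose-phosphate tag, had 101 and 190 tags and the adaptor subunit AP1B1 had 44 and 80, while the adaptor subunit AP3D1 fell from 514 to 171 (-1.45, adjusted p = 2.37e-32) and the adaptor GGA1 from 64 to 23. The mannose-phosphate receptors M6PR (351 and 323 tags, 0.02) and IGF2R (168 and 143, -0.09) were not called. Of 24 relatives of TFEB and genes of mTORC1 signalling at the lysosome, 7 were called higher and 3 lower (29.2% and 12.5%, against 9.53% and 12.2%), with a median of -0.04. HBXIP, a subunit of the Ragulator scaffold, rose from 432 to 1024 tags (1.38, adjusted p = 9.44e-67) and the GTPase RRAGD from 27 to 60, whereas the mTOR partner MLST8 fell from 257 to 110 and the calcineurin subunit PPP3CB from 22 to 2.

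**Figure D4:**
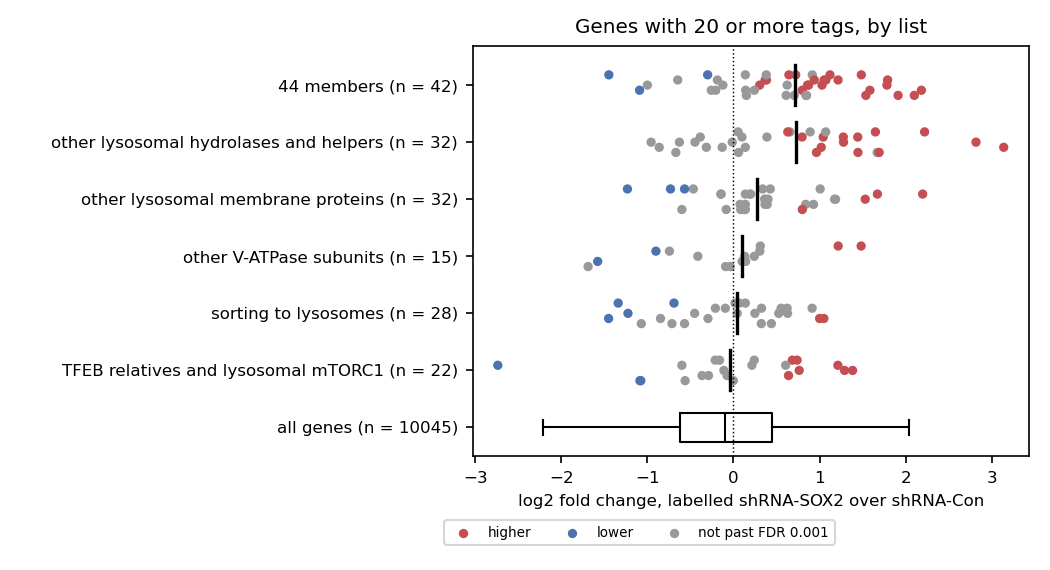
Log2 fold change of the library labelled shRNA-SOX2 relative to shRNA-Con for each gene with at least 20 tags, by list, with points coloured by call at FDR 0.001, black bars at the median of each list and a box with quartiles and whiskers (1.5 times the interquartile range) for all genes. The members and the other hydrolases had medians of 0.71 and 0.73, and the sorting and TFEB lists had medians of 0.04 and -0.04.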

How the data were processed

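DGE tags were profiled in 2 libraries of A549 cells, 1 per condition. The authors counted tags per Entrez Gene ID and deposited these counts without normalization. The TPM values deposited by the authors are the counts scaled by the clean tags of the library, and here they served only to recover the number of clean tags (3516266 and 3456234, shRNA-Con first). The deposited log2 ratio, P-value and FDR columns hold the authors' own comparison and were not used. The submitters' processing notes name hg19, and the aligner and counter are not given in the sources used here. The column marked SC was taken as shRNA-Con by its initials and the one marked S1 as the remaining library.

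The members and gene lists were chosen with earlier results of these data known. Each gene was tested with a two-sided Fisher's exact test of its tags against the other gene tags, with Benjamini-Hochberg adjustment over 13137 genes and an FDR of 0.001. The 95% intervals are exact (Clopper-Pearson) and reflect counting alone, since the tags carry no molecular identifiers. Levels in CPM were computed here from the deposited counts. Medians use genes whose tags in both libraries add up to at least 20. Named were all 44 members, SOX2, and of each other list the 2 genes with the largest log2 fold change in each direction among those past FDR 0.001 with 20 or more tags. TFE3, MITF, M6PR, IGF2R and the markers were named in addition, after their values were seen. Rows without a symbol held 0.0535% of the gene tags of shRNA-Con and 0.0372% of the other library. Promoter windows came from RefSeq (GRCh38.p14), and GENCODE release 29 gave only the names of pseudogenes and overlapping genes. No coordinates of the files were used. The results of 2 genes outside the lists are not reported here.

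Alternatives were TMM, median ratio or clean tag scaling, a minimum of 10 tags, an FDR of 0.05, and edgeR's exact test with an assumed coefficient of variation of 0.1, 0.2 or 0.4. The test was tested on simulated data. Python 3.11.15 with scipy 1.17.1, numpy 2.4.6 and matplotlib 3.10.9 was used, and edgeR 4.0.16 and DESeq2 1.42.0 were run in R 4.3.3.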

Additional observations from a re-analysis of the deposited data

How the results depend on the processing

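No paired analysis was possible because there was only 1 library of each line, which also left none to omit. No member changed direction under the scalings, which shift all genes by the same amount, and the other alternatives leave the fold change as it is. With edgeR's exact test the 26 called members became 13, 0 and 0 at an assumed coefficient of variation of 0.1, 0.2 and 0.4 (higher 12, 0 and 0, lower 1, 0 and 0), and 27, 17 and 4 of the 44 (61.4%, 38.6% and 9.09%) had an unadjusted p under 0.05, against 32.8%, 18.9% and 4.77% of all genes. The other 137 pathway genes went from 41 called to 22, 1 and 0 (higher 18, 1 and 0, lower 4, 0 and 0), and 54, 34 and 5 (39.4%, 24.8% and 3.65%) had an unadjusted p under 0.05. With an FDR of 0.05, 31 members were called, 25 higher and 6 lower. Of the other pathway genes 68 were called, 43 higher and 25 lower. Among all 13137 genes 4902 were called at this FDR, 2148 higher and 2754 lower. Scaling by clean tags moved the median of all genes from -0.10 to -0.22 and that of the members from 0.71 to 0.60. It called 5 members, 20 other pathway genes and 2010 of all 13137 genes lower. With gene tags these numbers were 3, 12 and 1597. Scaling by clean tags gave shares of 0.584% and 0.729% and a summed ratio of 1.25. It called CTSB and IDS lower, and CTSH, LAMP2 and CD63 were no longer called. Of all calls, 56.1% were lower, against 49.4% with TMM factors and 66.6% with clean tags. TMM factors called GLA and ATP6V1A, and the median ratio called ATP6V1A, and with either ATP6V0D1 was no longer called. At 1.5-fold, 25 members were higher and 6 lower, and the share of all genes at this size was not counted. Without CTSD, an alternative chosen after seeing the data, the summed ratio was 1.26. How far separate cultures differ was not measured, and under 200 tags (17 members) only larger differences could be called.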

Other observations

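In all, 165 genes carried the lysosome in their deposited Gene Ontology component, 36 of the members among them. Of the 165, 37 were called higher and 12 lower (22.4% and 7.27%). Their median log2 fold change was 0.14 over the 145 with at least 20 tags, below the 0.71 of the members. A further division left 70 of the 165 that stood in none of the lists, and they lay close to all genes. Of these, 5 were called higher and 6 lower (7.14% and 8.57%, against 9.53% and 12.2% of all genes), and the median log2 fold change of the 55 with at least 20 tags was -0.09. RAB7A, the GTPase of late endosomes, with 366 and 560 tags (shRNA-Con first, the library labelled shRNA-SOX2 second), and its effector RILP, with 13 and 38, which link lysosomes to the inward motor dynein, were both higher. Lower were GABARAP, a ubiquitin-like protein of autophagosomes (519 and 363 tags), HPS1 (169 and 68), ANKRD27 (145 and 32) and BCL10 (91 and 22), and higher were the peroxisomal catalase CAT (146 and 234), DRAM1 (153 and 206) and USE1 (39 and 79). These genes were chosen among the called ones after their values were seen.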
